A study of Mus musculus with 4 samples.

Results

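Lgr5-positive cells of the mouse small intestinal crypt were examined here in 4 single-cell libraries. Lgr5 is a receptor for R-spondins, ligands that raise Wnt signalling, and it marks the crypt base columnar cells, the dividing stem cells that sit between the Paneth cells at the crypt bottom. Their state is held by Wnt and Notch signals from the neighbouring Paneth cells and the stroma. Ascl2 is the Wnt-dependent transcription factor of these cells, Smoc2 a secreted matrix protein and Slc12a2 a sodium, potassium and chloride cotransporter, all 3 known from their transcriptome.

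The cells were selected on measured counts. A cell was taken when symbols starting with Defa, the alpha-defensins of Paneth cells, made up under 20% of its UMIs (unique molecular identifiers, 1 per captured RNA molecule) and when it held at least 1 UMI of Lgr5. This gave 452 of 26498 cells, and the 14989 other cells of Defa% under 20, which had no UMI of Lgr5, are called Lgr5-negative. The study compared 2 libraries from Slc7a5 fl/fl mice with 2 from Slc7a5 IEC-KO mice, all 8 weeks old. In Slc7a5 IEC-KO mice a Cre driven by the villin promoter deleted exon 1 of Slc7a5, a carrier of large neutral amino acids, in the intestinal epithelium, and the Slc7a5 fl/fl controls carried the same floxed alleles. Crypt cells that stained for EpCAM, not for CD45, and that excluded propidium iodide were sorted. The labels name 4 mice without saying how they were divided over the libraries, so the p-values measure the spread between libraries and may not measure that between animals.

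The libraries held 3633 and 3217 cells (Slc7a5 fl/fl 1 and 2) and 10004 and 9644 cells (Slc7a5 IEC-KO 1 and 2), with medians of 22242, 32549, 6699.5 and 9717.5 UMIs per cell. The smallest cell called in each held 8909, 9670, 3843 and 5858 UMIs. Depth therefore differed with genotype, and the chance of catching a scarce RNA such as Lgr5 differed with it. Among 323 barcodes found in more than 1 library, at most 132 were shared by any 2 libraries.

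Slc7a5 itself, on chromosome 8 (GRCm38, 121881150 to 121907694, minus strand), was at the limit of detection in the Lgr5-positive cells. It had 3, 0, 4 and 12 UMIs in fl/fl 1, fl/fl 2, IEC-KO 1 and IEC-KO 2, or 3.35, 0, 3.85 and 6.32 CPM (UMIs of a gene per 1000000 UMIs of the summed cells). In Lgr5-negative cells it was at 2.70, 3.11, 4.08 and 4.77 CPM. The UMIs come from the 3′ end of the transcript and the deleted exon is the first, so these counts do not check the labels. Its partner chain Slc3a2, which carries the transporter to the membrane, was at 53.6, 31.8, 87.6 and 84.8 CPM in the Lgr5-positive cells, higher in both IEC-KO libraries (log2 fold change 1.22, SE 0.22, edgeR adjusted p = 6.3e-04).

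The 452 Lgr5-positive cells were 73, 65, 140 and 174 in fl/fl 1, fl/fl 2, IEC-KO 1 and IEC-KO 2. They were 4.89% (95% exact Clopper-Pearson interval 3.85 to 6.11), 5.52% (4.28 to 6.98), 2.1% (1.77 to 2.47) and 2.86% (2.45 to 3.31) of the cells of Defa% under 20, and such intervals cover counting error only. The share was higher in both fl/fl libraries than in either IEC-KO library, with means of 5.20% ± 0.444 and 2.48% ± 0.538 (SD, n = 2 each, two-sided exact permutation p = 0.333, the smallest that 2 against 2 libraries can give). With every cell thinned to 3500 UMIs the shares were 1.94%, 1.70%, 1.09% and 1.3%, so the gap of 2.73 percentage points shrank to 0.627 points. Among cells of at least 9670 UMIs, the highest of the 4 lower limits, the shares were 5.17%, 5.52%, 4.20% and 4.79%. The order of the genotypes was the same at each of these depths, while its size was not.

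Lgr5 counts were low even in the selected cells. Of the 452, 401 held a single Lgr5 UMI and 51 held 2 or more, with a maximum of 6, so the selection turned on 1 molecule for most of them. The median depth of the Lgr5-positive cells was 11260, 12043, 6530.5 and 9481 UMIs in the 4 libraries, above the 10581, 11465, 5742.5 and 8068.5 of Lgr5-negative cells. Free RNA can place such a UMI in a cell that does not express the gene. In enterocyte-like cells, which should lack Lgr5, 1.3% of 1150 cells had a UMI of it (median depth 7382.5 UMIs), and in goblet-like cells 0.993% of 4128 (median 6500.5). These goblet-like cells, clusters 1 and 5 below, came almost wholly from the IEC-KO libraries. In cluster 8, mostly of fl/fl cells and with goblet and Paneth genes among its leading genes, it was 1.23% of 1136 (median 10338.5). The highest such share was 4.32%, in the enterocyte-like cells of fl/fl 1.

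The Defa% limit did not mark an edge of Lgr5 detection. Lgr5-positive cells of Defa% 15 to 20, just inside the limit, numbered 53, of which 9.43% were cycling and 5.66% had an Ascl2 UMI. Just outside, at Defa% 20 to 25, there were 83 cells, with 7.23% cycling and 4.82% with an Ascl2 UMI. Above the limit 1176 cells had a UMI of Lgr5, which were 12.4%, 13.8%, 7.55% and 10.6% of the Defa-rich cells of the 4 libraries. Defa-rich cells were deep, with medians of 45328.5, 51663, 11753 and 17427.5 UMIs, and after thinning to 3500 UMIs the shares were 1.21%, 0.981%, 1.87% and 2.19%. As a level, Lgr5 stood at 3.09, 2.97, 5.95 and 5.65 CPM in the Defa-rich cells and at 5.77, 5.24, 3.45 and 3.49 CPM in the cells of Defa% under 20. The Defa-poor cells had the higher level in both fl/fl libraries and the Defa-rich cells in both IEC-KO libraries.

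**Figure D1:**
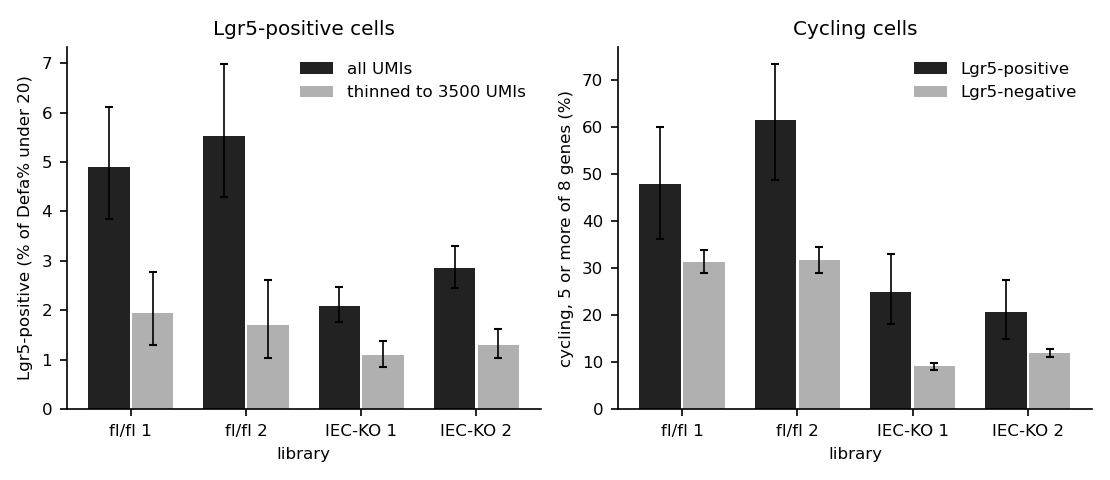
Left, Lgr5-positive cells as a percentage of the cells of Defa% under 20 in each library, with all UMIs and after thinning each cell to 3500 UMIs. Right, the percentage of Lgr5-positive and Lgr5-negative cells that were cycling. Bars are shares of cells and error bars are 95% exact binomial intervals. Both IEC-KO libraries lie below both fl/fl libraries in each panel, and Lgr5-positive cells exceed Lgr5-negative cells in the cycling share of all 4 libraries.

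Cycling cells, defined as holding a UMI of 5 or more of the 8 genes Mki67, Top2a, Ube2c, Cenpf, Birc5, Nusap1, Cdca3 and Cenpa, were more frequent among Lgr5-positive than Lgr5-negative cells in every library. The cycling share of Lgr5-positive cells was 47.9% (35 of 73 cells), 61.5% (40 of 65), 25% (35 of 140) and 20.7% (36 of 174) in fl/fl 1, fl/fl 2, IEC-KO 1 and IEC-KO 2. The share in Lgr5-negative cells was 31.3%, 31.6%, 9.10% and 11.9%. The mean difference was 17.8 percentage points, positive in 4 of 4 libraries (two-sided exact sign-flip permutation p = 0.125, the smallest that 4 libraries can give). Against Lgr5-negative cells matched on UMIs it was 14.1 points, and after thinning to 3500 UMIs 11.4 points.

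Within the Lgr5-positive cells the cycling share was 54.7% ± 9.61 in fl/fl and 22.8% ± 3.05 in IEC-KO libraries (SD, n = 2 each, exact permutation p = 0.333). The 2 genotypes did not overlap. After thinning the shares were 27.6%, 35.0%, 11% and 11.4%. At a common lower limit of 9670 UMIs they were 46.4%, 61.5%, 25% and 20.7%, beside 37.7%, 31.6%, 19.6% and 22.0% in Lgr5-negative cells, so that in IEC-KO 2 the Lgr5-positive cells no longer had the higher share.

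The Lgr5-positive cells did not form a single group. Clustering of the 15441 cells of Defa% under 20, run without Lgr5 and the Defa genes, gave 14 clusters, and Lgr5-positive cells were found in each of them. Cluster 9, led by Stmn1, a tubulin-binding protein of dividing cells, and Cps1, a urea cycle enzyme found in crypt cells, held 114 of the 452 (29, 29, 33 and 23 by library). A UMI of Lgr5 was found in 10.8% of its 1051 cells, and its Lgr5 level of 15.4 CPM was the highest of the 14. Cluster 11, led by Dmbt1, a secreted mucosal defence protein, and Cps1, held 58, with Lgr5 in 7.46% of cells. Cluster 2, led by histone and mitotic genes, held 57, with 3.27%. Cluster 7, led by Rnase1 and the chemokine Ccl9, held 52, with 4.37%. No other cluster held more than 34.

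The remaining Lgr5-positive cells lay in clusters of other kinds. Goblet-like clusters 1 and 5 held 33 and 8, at 1.13% and 0.666% of their cells, close to the share in the enterocyte-like clusters 10 and 12 (1.60% and 0.595%). Clusters 3, 4, 6 and 8 held 28, 34, 29 and 14, at 1.92%, 2.49%, 2.43% and 1.23% of their cells. Enteroendocrine-like cluster 14 held 1 cell. Tuft-like cluster 13, of only 139 cells, held 9, or 6.47%, at an Lgr5 level of 9.73 CPM. Clusters 1, 3, 5 and 6 came almost wholly from the IEC-KO libraries and cluster 8 from the fl/fl libraries, so the spread over clusters differed with genotype. Calls of doublets, droplets that resemble simulated pairs of cells, fell on 2, 0, 22 and 20 of the Lgr5-positive cells (2.74%, 0%, 15.7% and 11.5%), against 0.282%, 0.180%, 7.42% and 7.15% of Lgr5-negative cells.

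**Figure D2:**
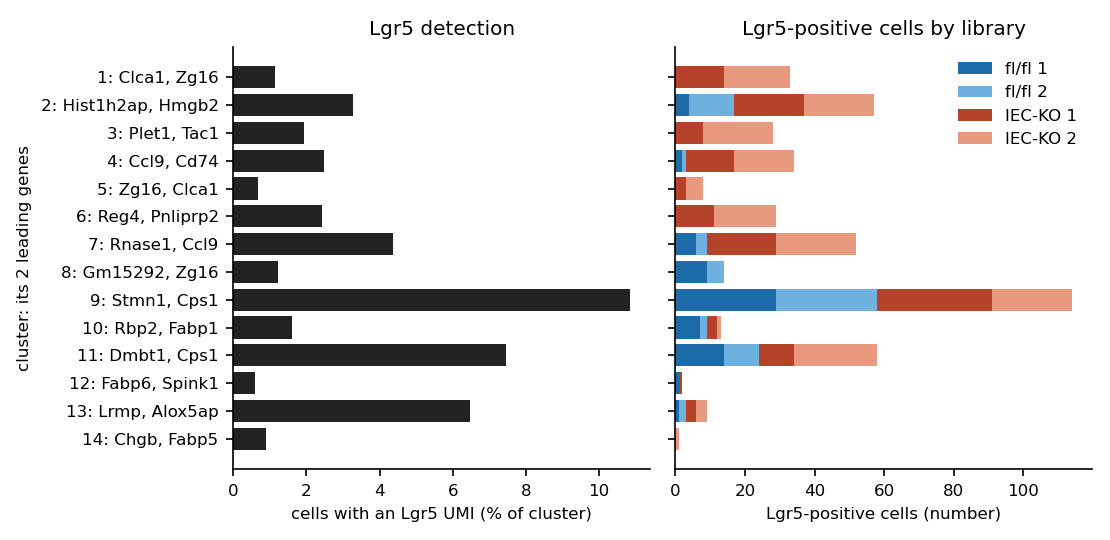
Left, the percentage of each cluster's cells with a UMI of Lgr5. Right, the number of Lgr5-positive cells of each cluster, stacked by library. Clusters of cells of Defa% under 20 are named by number and 2 leading genes. Cluster 9 has the highest share, 10.8%, and holds 114 of the 452 cells.

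The label of crypt base columnar cell was checked against its markers in single cells. Ascl2 had a UMI in 37.0%, 40.0%, 12.1% and 12.1% of Lgr5-positive cells in fl/fl 1, fl/fl 2, IEC-KO 1 and IEC-KO 2, against 5.56%, 9.07%, 1.97% and 3.28% of Lgr5-negative cells. Smoc2 had one in 42.5%, 52.3%, 22.9% and 28.2% against 23.0%, 23.4%, 11% and 15.6%. Slc12a2 had one in 82.2%, 87.7%, 64.3% and 71.8% against 66.1%, 66.8%, 43.7% and 58.9%. All 3 markers were found more often in the Lgr5-positive cells of every library, but most of these cells showed no Ascl2, and they lay in all 14 clusters. The label is thus borne out for a part of them, and they are called Lgr5-positive cells throughout.

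Cells that held both Lgr5 and Ascl2 were more often cycling than the others. The 91 Lgr5-positive cells with an Ascl2 UMI had a median of 10985 UMIs and 71.4% of them were cycling. The 361 without one had a median of 9477 UMIs and 22.4% were cycling. These shares pool the libraries. Within fl/fl 1, fl/fl 2, IEC-KO 1 and IEC-KO 2 the cycling share was 88.9%, 76.9%, 35.3% and 71.4% with an Ascl2 UMI, against 23.9%, 51.3%, 23.6% and 13.7% without one. Among cells with 2 or more Lgr5 UMIs, only 7 to 17 a library, it was 66.7%, 50%, 42.9% and 23.5%, against 43.1%, 64.2%, 24.1% and 20.4% of cells with 1 Lgr5 UMI. The difference thus went the other way in fl/fl 2. Markers of blood and stroma were near 0: of Ptprc, Cd3e, Cd3g, Cd8a, Cd52, Gzma and Nkg7 only Cd3e was seen, in IEC-KO 2, and of Col1a1, Col3a1, Vim, Dcn and Pdgfra only Vim, in IEC-KO 1.

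Lgr5-positive and Lgr5-negative cells were next compared gene by gene, on UMIs summed per library and class. Genes of the stem cell, of MHC class II and of DNA replication were higher in the Lgr5-positive cells. Wnt targets were higher in 5 of 10 tested. Goblet and enterocyte genes were lower. Among 10546 genes tested, 620 were higher (5.88%) and 745 lower (7.06%), 12.9% in either direction (edgeR quasi-likelihood test with library as a block, Benjamini-Hochberg adjusted p under 0.05). Of these 1365, 1302 moved the same way in all 4 libraries, as did 33.1% of all genes tested. Scaling by library size alone gave 876 higher and 483 lower, and a model without the library block called 155 genes. Lgr5 and the Defa genes, which had chosen the cells, were left out.

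Ascl2 (chromosome 7, 142966829 to 142969264, minus strand) had the largest fold of the genes above 20 CPM in 1 of the classes. Ascl2 was at 48.0, 56.5, 26.0 and 19 CPM in the Lgr5-positive cells of fl/fl 1, fl/fl 2, IEC-KO 1 and IEC-KO 2, against 7.13, 10.3, 3.82 and 4.82 CPM in Lgr5-negative cells (log2 fold change 2.38, SE 0.17, edgeR adjusted p = 2.2e-08). The lowest Lgr5-positive library lay above the highest Lgr5-negative one. Gkn3 (chromosome 6, 87383256 to 87388935, minus strand), a gastrokine known as a stem cell gene of the mouse ileum, was at 42.4, 24.7, 21.2 and 17.9 CPM against 4.98, 5.71, 4.27 and 4.06 CPM (log2 fold change 2.35, SE 0.20, edgeR adjusted p = 2.3e-07). Its classes did not overlap either.

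The other markers moved less. Smoc2 (chromosome 17, 14279506 to 14404790, plus strand) was at 67.0, 64.8, 35.6 and 33.2 CPM against 25.8, 23.8, 19.3 and 20.3 CPM (log2 fold change 1.02, SE 0.13, edgeR adjusted p = 3.6e-05). Slc12a2 was at 212, 236, 142 and 147 CPM against 120, 124, 99.7 and 115 CPM (log2 fold change 0.57, SE 0.09, edgeR adjusted p = 1.5e-04). Olfm4 (chromosome 14, 79984081 to 80023139, plus strand), a secreted glycoprotein of intestinal stem cells, was at 29.0, 15.3, 14.4 and 5.27 CPM against 4.06, 6.14, 2.49 and 2.42 CPM (log2 fold change 1.92, SE 0.29, edgeR adjusted p = 1.6e-04). For Olfm4 the classes overlapped across libraries, though not within any library.

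Of 27 stem cell genes listed, 24 passed the filter on low counts, 20 of these were higher and 0 lower, with a median log2 fold change of 1.249 beside -0.004 over all genes tested. The list includes the 3 markers above. The hyaluronan receptor Cd44 was higher by 1.84 (SE 0.16) on the log2 scale and Cdca7, a chromatin protein of replicating cells, by 1.82 (SE 0.15). Other members were Clca3b, Cdk6, which drives entry into the cycle, Sox9, a transcription factor of the crypt base, and Aqp4, a water channel. Prom1 stood at 0.05 (edgeR adjusted p = 0.78) and Cyp2e1 at 1.24 (edgeR adjusted p = 0.11).

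A part of the Wnt target genes was higher in the Lgr5-positive cells. Axin2 (chromosome 11, 108920349 to 108950783, plus strand), a feedback inhibitor of the pathway, was at 59.2, 50.6, 23.1 and 22.1 CPM against 9.71, 12.1, 6.33 and 7.52 CPM (log2 fold change 1.95, SE 0.17, edgeR adjusted p = 3.0e-07), with no overlap of the classes. Rnf43, a ligase that removes Wnt receptors, the transcription factor Sp5, the receptor Ephb3 and Ccnd1, a cyclin of the G1 phase, were higher as well. This made 5 of 10 targets tested higher and 0 lower, with a median of 0.79. In cluster 9 alone 2 of 7 targets tested were higher and 0 lower. Of 8 receptors of niche signals tested, Notch1 was higher (log2 fold change 2.02, SE 0.28) and no other passed the test.

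Genes of the Notch decision moved apart. Hes1, the repressor that Notch induces, was at 74.8, 77.7, 36.6 and 34.8 CPM against 29.1, 29.7, 19.6 and 27.4 CPM (log2 fold change 0.90, SE 0.15), and Sox4 and the ligand Jag1 were higher too. Atoh1, the factor that commits cells to secretory fates, was at 64.8, 65.9, 106 and 116 CPM against 105, 97.0, 117 and 122 CPM (log2 fold change -0.37, SE 0.11, edgeR adjusted p = 0.025). The call of Atoh1 was lost without fl/fl 1 (-0.25, edgeR adjusted p = 0.23), without fl/fl 2 (-0.28, 0.17) or without IEC-KO 1 (-0.45, 0.056), by DESeq2 (-0.40, adjusted p = 0.055) and in cluster 9 alone (-0.30, edgeR adjusted p = 0.74). Spdef, which acts below Atoh1 in goblet cells, and the Notch ligand Dll1 were lower as well, though Spdef stood at 0.47 in cluster 9 alone. Of 4 genes of reserve or injury-induced stem cells that could be tested, 1 was higher, Mex3a, an RNA-binding protein.

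MHC class II genes were higher as a group, 4 of 4 tested (H2-Aa, H2-Ab1, H2-Eb1 and the invariant chain Cd74). Cd74 was at 1017, 1222, 943 and 739 CPM in the Lgr5-positive cells against 483, 426, 462 and 404 CPM (log2 fold change 1.04, SE 0.08, edgeR adjusted p = 2.2e-08). The classes did not overlap. Ifitm3, an interferon-induced membrane protein, was at 479, 392, 338 and 231 CPM against 84.6, 90.6, 87.7 and 81.5 CPM (log2 fold change 1.93, SE 0.11). Amica1, a junction adhesion molecule, was at 154, 164, 70.2 and 48.4 CPM against 29.2, 36.7, 13.9 and 16 CPM (log2 fold change 2.04, SE 0.12). The RNA Kcnq1ot1, the cell cycle regulator Rgcc and Cdo1, which oxidises cysteine, complete the 10 highest folds.

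**Figure D3:**
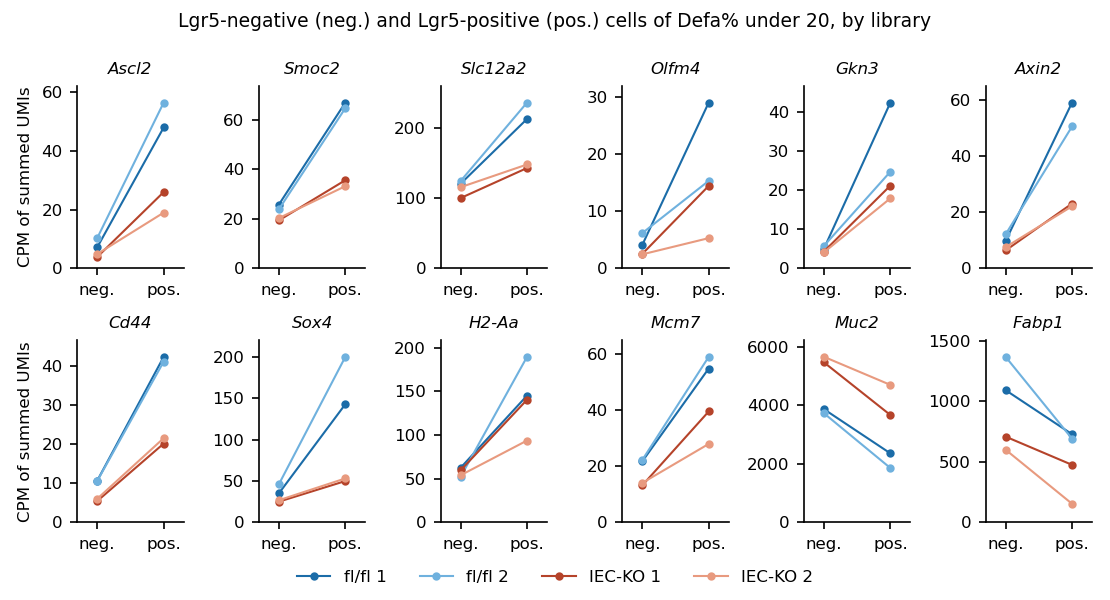
Level of 12 genes in Lgr5-negative and Lgr5-positive cells, as CPM of the UMIs summed per library (linear axes from 0), with a line joining the classes of each library. The 10 genes from Ascl2 to Mcm7 have the higher level in Lgr5-positive cells in all 4 libraries, and Muc2 and Fabp1 the lower one.

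Genes of DNA replication were higher in 18 of 24 tested, with a median log2 fold change of 0.74, and none was lower. Mcm7, a subunit of the replicative helicase, was at 54.7, 58.9, 39.4 and 27.9 CPM against 21.7, 22.2, 13.2 and 14.0 CPM (log2 fold change 1.23, SE 0.13). The 8 cycling genes were all higher (median 0.56), as were 7 of 18 other genes of the G2 and M phases. Mki67, the marker of proliferating cells, was at 71.5, 96.6, 55.8 and 49.5 CPM against 59.8, 51.4, 27.4 and 29.3 CPM (log2 fold change 0.65, SE 0.12). Among the cells of clusters 2, 9 and 11 alone, a restriction chosen after the data were seen, the log2 fold change of Mki67 was 0.03 (edgeR adjusted p = 0.93), Ube2c was lower (-0.27, edgeR adjusted p = 0.013), and the cycling share differed by -1.77 percentage points. By library that share was 72.3%, 76.9%, 52.4% and 53.7% against 77.4%, 77.0%, 51.0% and 57.1%. The cycling genes were not left out of the clustering, and 71.8% and 67.7% of the cells of clusters 2 and 9 were cycling. Restricting to clusters 2, 9 and 11 thus selects in part on the cycle, and the cycling difference there is not read further. Of the 24 replication genes 4 were higher there (median 0.27), Mcm7 by 0.78, and in cluster 9 alone 4 of 23, where 3.84% and 3.8% of all genes tested were higher. None of the 18 other G2 and M genes was higher in either set.

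Goblet and enterocyte genes were lower in Lgr5-positive cells. All 9 goblet genes tested were lower, with a median of -0.81. Muc2, the gel-forming mucin, was at 2356, 1856, 3665 and 4694 CPM against 3865, 3725, 5462 and 5652 CPM (log2 fold change -0.71, SE 0.09). The summed goblet genes, amounted to 8.53%, 6.96%, 10.7% and 12.1% of the UMIs of Lgr5-positive cells, where Spink4 led in every library, beside 14.2%, 13.8%, 14.5% and 14.6% in Lgr5-negative cells. Of 12 enterocyte genes 10 were lower and 0 higher, the fatty acid carrier Fabp1 at 728, 691, 475 and 154 CPM against 1092, 1368, 708 and 600.4 CPM (log2 fold change -1.08, SE 0.14). Of 10 enteroendocrine genes 4 were lower.

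The largest falls named by the rule were those of Reg1 (log2 fold change -1.59, SE 0.18), a lectin of the crypt and villus, and of the gut hormones Pyy (-1.58, SE 0.14), Nts (-1.55, SE 0.23) and Sst (-1.37, SE 0.15). The carbonic anhydrase Car4, the apolipoproteins Apoa4 and Apoa1, the proglucagon gene Gcg, Bcas1 and Papss2 followed, down to -1.1. Of 5 Paneth genes outside the Defa family 0 passed the threshold, with a median of 0.06. Their most abundant member was Lyz1 in the fl/fl and Itln1 in the IEC-KO libraries, and together they made up 23027, 21267, 26609 and 24780 CPM in Lgr5-positive cells and 20263, 20023, 22986 and 22084 CPM in Lgr5-negative cells.

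Tuft cell genes were higher in 5 of 8 tested, with 0 lower and a median of 0.95. Rgs13, a regulator of G-protein signalling, was at 24.6, 33.0, 19.2 and 12.1 CPM against 8.54, 6.07, 9.62 and 5.4 CPM (log2 fold change 1.43, SE 0.22), and Dclk1, Alox5ap and Lrmp were among the others. Within clusters 2, 9 and 11 the log2 fold change of Rgs13 was 0.25 (edgeR adjusted p = 0.86). The 9 tuft-like cells among the 452 were the ones in cluster 13.

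Of 24 genes of ATF4 and amino acid supply tested, 5 were lower (Nupr1, Asns, Eif4ebp1, Slc3a2 and Atf4) and 0 higher. In cluster 9 alone 1 of 14 was higher and 0 lower, and in clusters 2, 9 and 11 1 of 24 was higher and 1 lower. Atf4 lost its call in cluster 9 alone (-0.22, edgeR adjusted p = 0.52) and in clusters 2, 9 and 11 (-0.19, edgeR adjusted p = 0.33). It also lost it by DESeq2 (-0.27, adjusted p = 0.090). Nupr1 (-0.04) and Asns (-0.10) lost theirs in cluster 9 alone. Acadm was lower among 7 genes of fatty acid oxidation and ketogenesis. Of 13 genes induced by dissociation, Jun was higher and Hspa1a and Fos were lower. Ribosomal protein genes were higher in 20 of 82 tested, with a median of 0.15, and in 73 of 82 both in cluster 9 alone (median 0.24) and in clusters 2, 9 and 11 (median 0.22).

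The lists were counted again in narrower sets of cells. In cluster 9 alone, also chosen after the data were seen, 15 of 21 stem cell genes tested were higher and 0 lower. The log2 fold change there was 1.43 for Ascl2, 1.37 for Gkn3, 1.31 for Axin2, 0.98 for Slc12a2 and 0.79 for Smoc2, each past the threshold, and of 7032 genes tested 518 were called (7.37%), 3.8% higher and 3.57% lower. In clusters 2, 9 and 11 it was 699 of 9405 (7.43%), 3.84% higher and 3.59% lower. In cluster 9 alone the fold of Slc12a2 was larger than in all cells and those of the other 4 were smaller. Of 12 enterocyte genes 4 were lower in clusters 2, 9 and 11, and of 9 goblet genes 7 were lower there and 2 in cluster 9 alone. Of the named genes with a call above that could be tested in clusters 2, 9 and 11, 65 kept it, 43 lost it and 10 reversed. In cluster 9 alone 47 kept it, 50 lost it and 10 reversed. There Muc2 stood at -0.14 (edgeR adjusted p = 0.19). Against Lgr5-negative cells matched on UMIs, Ascl2 stood at 2.27 and Smoc2 at 0.89, and 1077 of the 1112 genes called were among the 1365 called above.

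Cycling Lgr5-positive cells were also set against cycling Lgr5-negative cells, which puts 146 cells beside 2097 and asks what differs when both classes divide. Stem cell and MHC class II genes were again higher and goblet genes lower. Of 8871 genes tested 276 were higher (3.11%) and 272 lower (3.07%), 6.18% in all. Of 23 stem cell genes tested 18 were higher and 0 lower (median 1.31, beside a median near 0 over all genes). Tnfrsf19, 1 of the 18, entered the test through the Lgr5-positive cells alone, which set its direction. Of 7 Wnt targets tested Axin2 and Rnf43 were higher and 0 lower. Of 7 genes of the Notch decision Sox4 and Hes1 were higher and Atoh1, Spdef and Dll1 lower. Both classes were chosen on mitotic genes, so nothing is read from the 0 of 18 other G2 and M genes that passed the test.

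Ascl2 was at 91.9, 71.1, 24.4 and 66.7 CPM in the cycling Lgr5-positive cells against 16.1, 20.1, 12.9 and 15 CPM in the cycling Lgr5-negative ones (log2 fold change 2.02, SE 0.20, edgeR adjusted p = 4.0e-11). Rgcc led the rises at 2.40 (SE 0.29), followed by Bex4 at 2.12 (SE 0.33) and Olfm4 at 2.05 (SE 0.32). Notch1 was higher by 2.01 (SE 0.36) and Hes1 by 1.1 (SE 0.16), while Atoh1 was at -0.59 (SE 0.15). The call of Atoh1 was lost without fl/fl 1 (-0.38, edgeR adjusted p = 0.26), without fl/fl 2 (-0.64, edgeR adjusted p = 0.054) and by DESeq2 (-0.59, adjusted p = 0.12). All 9 goblet genes were lower and so were 5 of 8 enteroendocrine genes, Pyy and Gcg among them. The falls with the largest fold were Serpina1b (-1.81, SE 0.32), a protease inhibitor, and Mxd3 (-1.69, SE 0.31), a repressor that pairs with Max. E2f2, a transcription factor of the cell cycle, was also lower (-1.25, SE 0.35). Ribosomal protein genes were higher in 58 of 82 tested, with a median of 0.21.

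Among the Lgr5-positive cells themselves, the 146 cycling cells were set beside the 306 others. Since the split was made on 8 mitotic genes, those 8 were left out, and the counts are given as a description. Of 3807 genes 386 were higher in cycling cells (10.1%) and 485 lower (12.7%), 22.9% in all. Kif2c, a motor protein of the spindle, had the largest fold, and all 12 further G2 and M genes tested were higher. The 10 named rises of largest fold, Kif2c among them, and 9 of the 12 entered the test through the cycling class alone. This set their direction, since they were under the level of the filter in every sum of the non-cycling cells. The cyclin Ccnb1, for example, was at 91.9, 148, 83.5 and 79.6 CPM against 4.35, 12.2, 5.32 and 3.98 CPM. Of 14 stem cell genes tested 5 were higher (Clca3b, Cdca7, Cd44, Ascl2 and Smoc2) and 0 lower. Slc12a2 (0.32, edgeR adjusted p = 0.092), Sox9 (-0.28) and Prom1 (-0.46) were among those without a call. Of 5 Wnt targets 1 was higher, Axin2. Of 4 genes of the Notch decision Sox4 and Hes1 were higher and Spdef and Atoh1 lower. Ascl2 was at 6.52, 33.4, 26.6 and 6.63 CPM in the non-cycling cells. Cd44 entered the test through the cycling class alone, which set its direction. It was at 15.2, 18.2, 14.6 and 15.9 CPM in the non-cycling cells. In IEC-KO 1 Ascl2 did not follow, at 24.4 CPM in cycling cells against 26.6 CPM. All 9 goblet and all 5 Paneth genes tested were lower in the cycling cells, as were 9 of 15 ATF4 genes. Scaling by library size alone gave 839 higher and 263 lower and moved the median of all genes by 0.21, from 0.02 to 0.23.

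The genotypes were compared within the Lgr5-positive cells. In the IEC-KO libraries genes of the ATF4 response to amino acid shortage were higher, goblet and enteroendocrine genes were higher, and genes of mitosis and a part of the stem cell genes were lower. Of 6322 genes tested, 376 were higher (5.95%) and 249 lower (3.94%), 9.89% in all (edgeR, 2 against 2 libraries). Of the 376 higher genes 40 were under the level of the filter on low counts (10.3 CPM) in both fl/fl libraries, and of the 249 lower ones 33 were under it in both IEC-KO libraries. Such genes entered the test through 1 genotype alone, which set their direction. The 2 genotypes did not overlap for 617 of these 625 genes, and for 53.7% of all genes tested. Scaling by library size alone turned the balance to 212 higher and 729 lower and moved the median of all genes by -0.22, to -0.23. DESeq2 called 175 genes, 131 higher and 44 lower, all of them among the 625.

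Of 18 ATF4 and amino acid genes tested 15 were higher and 0 lower, with a median of 1.74 beside -0.008 over all genes tested. Trib3, Chac1, Slc7a11 (1, 0, 12 and 34 UMIs) and Vldlr reached the filter only through their IEC-KO counts, so the count and median are a description. It was 12 of 16 within clusters 2, 9 and 11, where 156 of 5270 genes tested were called (2.96%), 2.09% higher and 0.873% lower. Atf4, the transcription factor itself, was at 86.0, 101, 192 and 202 CPM in fl/fl 1, fl/fl 2, IEC-KO 1 and IEC-KO 2 (log2 fold change 1.3, SE 0.16, edgeR adjusted p = 8.4e-06). Ddit3, the stress factor CHOP, was at 17.9, 10.6, 85.6 and 99 CPM (log2 fold change 2.92, SE 0.26). Asns, which makes asparagine, was at 45.8, 47.1, 123 and 133 CPM (log2 fold change 1.69, SE 0.18), and Nupr1, a stress-induced chromatin protein, at 359.6, 312, 1870.4 and 2013 CPM (log2 fold change 2.75, SE 0.13). No genotype overlapped the other for any of these 4, nor for 53.7% of all genes tested. Psph, Psat1 and Phgdh, the enzymes of serine synthesis, were higher by 2.77, 1.63 and 1.37 on the log2 scale, and Mthfd2 of mitochondrial folate metabolism by 1.56.

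Several of these genes were almost without counts in fl/fl. Trib3, a pseudokinase that ATF4 induces, had 2, 0, 72 and 146 UMIs, a ratio of summed levels of 64.7 (95% exact interval 17.7 to 538, counting error only). Chac1, which degrades glutathione, had 1, 1, 46 and 92 UMIs, a ratio of 41.0 (11.1 to 342), and the hormone Adm2 had 0, 1, 48 and 102, a ratio of 89.1 (15.7 to 3541). Stc2, a secreted glycoprotein, had 0, 0, 25 and 65 UMIs and was at least 17.8-fold higher in IEC-KO, taking 3 counts over both fl/fl libraries as the floor. Try5, a trypsinogen, had 0, 0, 21 and 78 and was at least 19.6-fold higher. Each had more UMIs in either IEC-KO library than in both fl/fl libraries together.

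Within clusters 2, 9 and 11, where the kinds of cell were closer, Atf4 differed by 1.16, Ddit3 by 2.58, Psph by 1.88 and Asns by 0.96 on the log2 scale, each past the threshold. Reg4, a lectin of secretory cells, was at 690.1, 511, 4153 and 4102 CPM (log2 fold change 3.00, SE 0.14), Atf5 at 12.3, 8.24, 88.5 and 109 CPM (3.49, SE 0.27), and Rbp4, the retinol carrier of plasma, at 3.35, 7.07, 34.6 and 30.5 CPM (2.83, SE 0.40). Angptl8 completed the 10 highest folds, of which 7 entered the test through IEC-KO alone.

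**Figure D4:**
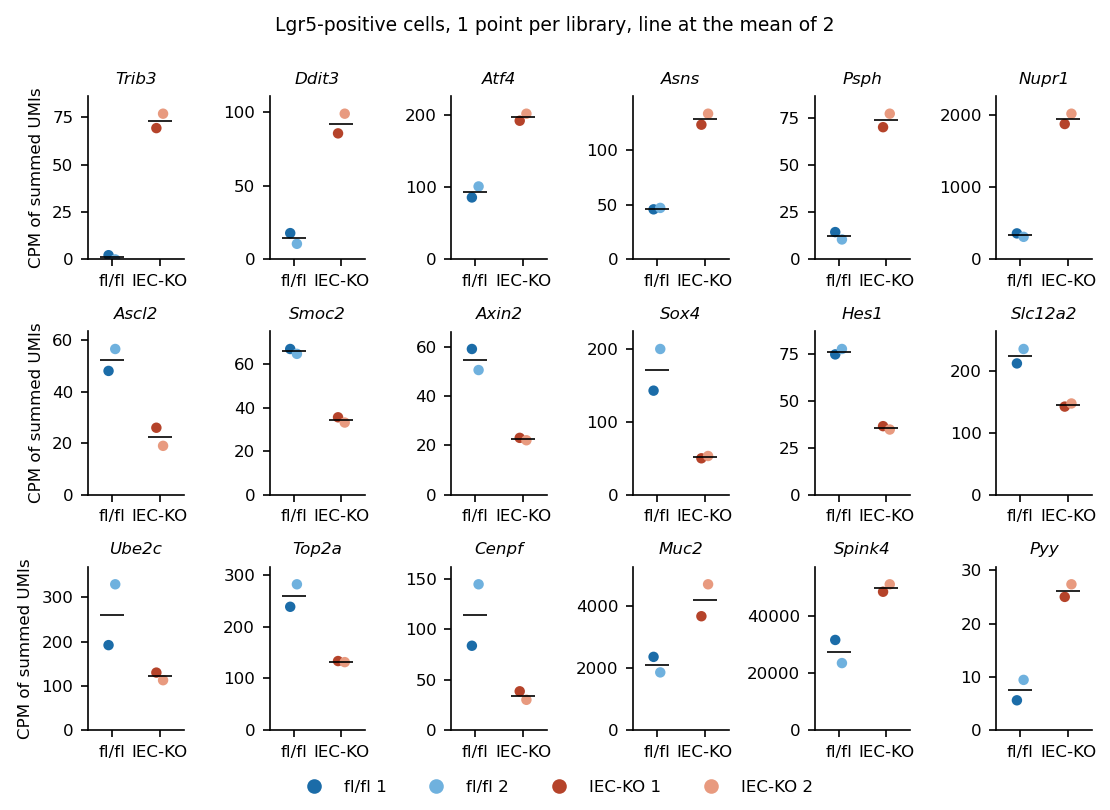
Level of 18 genes in Lgr5-positive cells of each library, as CPM of summed UMIs (linear axes from 0); points are libraries and lines the mean of 2. The top row shows ATF4 and amino acid genes, the middle row stem cell, Wnt and Notch genes, and the bottom row 3 mitotic genes, 2 goblet genes and the hormone Pyy. The genotypes do not overlap for any of the 18, nor for 53.7% of all genes tested.

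Stem cell genes were lower or did not pass the test. Of 19 tested, 6 were lower (Clca3b, Cdk6, Ascl2, Cdca7, Scn2b and Smoc2) and 0 higher, with a median of -0.45. Scn2b (11, 9, 3 and 4 UMIs) entered the test through fl/fl alone. Ascl2 was at 48.0, 56.5, 26.0 and 19 CPM (log2 fold change -1.04, SE 0.25, edgeR adjusted p = 9.0e-03) and Smoc2 at 67.0, 64.8, 35.6 and 33.2 CPM (-0.73, SE 0.21, edgeR adjusted p = 0.031). Slc12a2 at 212, 236, 142 and 147 CPM (-0.40, SE 0.15, edgeR adjusted p = 0.088) and Olfm4 at 29.0, 15.3, 14.4 and 5.27 CPM (-1.14, SE 0.44, edgeR adjusted p = 0.11) did not pass. Axin2 was at 59.2, 50.6, 23.1 and 22.1 CPM (-1.06, SE 0.24). These calls were lost in other settings. Within clusters 2, 9 and 11, 1 of 18 stem cell genes was lower, and Ascl2 stood at -0.60 (edgeR adjusted p = 0.28), Smoc2 at -0.63 and Axin2 at -0.71, none past the threshold, and none of the 3 was called by DESeq2. Fewer such cells among the Lgr5-positive and less RNA in each cannot be told apart in the sums.

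Sox4, a transcription factor of stem and early progenitor cells, was at 143, 200, 50.03 and 53.2 CPM (log2 fold change -1.50, SE 0.18, edgeR adjusted p = 7.1e-06), and within clusters 2, 9 and 11 its log2 fold change was -1.19, past the threshold. Hes1 was at 74.8, 77.7, 36.6 and 34.8 CPM (-0.88, SE 0.20). In the other direction Atoh1 was at 64.8, 65.9, 106 and 116 CPM (0.99, SE 0.17) and Spdef, its target, was higher by 1.15 (SE 0.17). Within clusters 2, 9 and 11 Hes1 stood at -0.61 (edgeR adjusted p = 0.16) and Atoh1 at 0.57 (edgeR adjusted p = 0.26), without a call. Of 6 Wnt targets tested 1 was lower, Axin2, and 1 higher, Ephb3, at 15.6, 14.1, 41.4 and 40.0 CPM (1.66, SE 0.29), and within clusters 2, 9 and 11 none of the 6 had a call.

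Mitotic genes were lower, 7 of the 8 cycling genes (median -1.04) and 11 of 16 other G2 and M genes (median -1.13), none higher. Of the 16, Kif23, which was called, and Kif11 and Kif20b, which were not, entered the test through fl/fl alone. This set their direction. Cenpf, a kinetochore protein, was at 83.8, 145, 38.5 and 30.0 CPM (log2 fold change -1.55, SE 0.23), and Mki67 at 71.5, 96.6, 55.8 and 49.5 CPM did not pass (-0.46, SE 0.20, edgeR adjusted p = 0.14). Of 19 replication genes 1 was lower, Slbp, which binds histone mRNA. Within clusters 2, 9 and 11, 2 of the 8 cycling genes and 1 of the 16 others were lower, where Ube2c and Top2a stood at -0.33 and -0.14 without a call, and Cenpf at -1.0 was called. Mitotic genes were not left out when these clusters were formed, so nothing is read from the lost calls.

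Markers of other cell types moved with the genotype in the same cells. Of 9 goblet genes 6 were higher and 0 lower (median 0.60), Spink4, a secreted peptide of goblet cells, from 31693 and 23553 to 48652 and 51278 CPM. Of 7 enteroendocrine genes tested 6 were higher (median 1.66), among them Gcg and Pyy, which entered the test through IEC-KO alone. Pyy was at 5.58, 9.42, 25 and 27.4 CPM, the summed list standing at 563, 654, 839 and 1137 CPM in Lgr5-positive and at 900, 834, 1902 and 1719 CPM in Lgr5-negative cells. Cck at 58.1, 55.3, 72.2 and 262 CPM and Chgb at 22.3, 30.6, 32.7 and 99.5 CPM were high in IEC-KO 2, and without it their log2 fold changes were 0.57 (edgeR adjusted p = 0.23) and 0.53 (edgeR adjusted p = 0.51). Gip lost its call without IEC-KO 2 (edgeR adjusted p = 0.098) and without fl/fl 1 (edgeR adjusted p = 0.17). Without IEC-KO 2, 3 of the 7 were higher, and within clusters 2, 9 and 11, 2 of 6 enteroendocrine genes and 5 of 9 goblet genes were. Of 5 Paneth genes Itln1 and Mmp7 were higher and Ang4 and Mptx2 lower. Of 9 enterocyte genes 5 were lower, none of them within clusters 2, 9 and 11, and 2 of these, Apoa1 and Sis, turned to 0.08 and 0.35 within clusters 2, 9 and 11. Summed goblet genes were higher in both IEC-KO libraries, as given above. With called doublets left out, 67 of the named genes with a call between genotypes kept it, 16 lost it and 0 reversed. The part of free RNA, of doublets not called and of other cells in these values was not tested. Reg1, the largest fall, was at 203, 166, 31.8 and 31.6 CPM (log2 fold change -2.32, SE 0.19), and within clusters 2, 9 and 11 it stood at 0.10.

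The falls next in size were Casc5 (-2.24, SE 0.43), which anchors the kinetochore, Slc4a4 (-2.08, SE 0.43), a bicarbonate cotransporter, and Mettl20 (-1.87, SE 0.43). Clic6, Adh6a, the carbonic anhydrase Car9, Mpzl2 and the ephrin Efna4 were among the others, down to -1.76. All of these but Adh6a entered the test through fl/fl alone, which set their direction. Of the other lists, 1 of 6 niche receptors was lower (Erbb2, through fl/fl alone), 1 of 5 genes of fatty acid oxidation and ketogenesis was lower (Acadm), and 0 of 2 reserve stem cell genes, 0 of 6 tuft, 0 of 4 MHC class II and 0 of 6 dissociation genes passed the test in either direction. Of 82 ribosomal protein genes 21 were higher and 1 lower, and within clusters 2, 9 and 11 1 was higher and 1 lower.

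A last comparison asked whether the genotype difference itself differed between Lgr5-positive and Lgr5-negative cells. It did for 31 of 11087 genes (0.28%), 22 with the more positive change in Lgr5-positive cells (0.198%) and 9 with the more negative one (0.0812%) by edgeR's interaction term. Sox4 and Igfbp4, a binding protein of insulin-like growth factors, were the stem and progenitor genes among them. Sox4 went from 143 and 200 to 50.03 and 53.2 CPM in Lgr5-positive cells and from 35.2 and 46.2 to 25.1 and 26.8 CPM in Lgr5-negative cells. Igfbp4 went from 48.0 and 57.7 to 39.4 and 32.1 CPM in the first and from 12.8 and 14.5 to 21 and 20.1 CPM in the second. The change of Igfbp4 in Lgr5-positive cells did not itself pass the test (log2 fold change -0.37, edgeR adjusted p = 0.35), and changes in Lgr5-negative cells alone were not tested.

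Among ATF4 genes only Phgdh, the first enzyme of serine synthesis, passed this test. It was at 45.8, 37.7, 93.3 and 92.7 CPM in Lgr5-positive cells and at 16.3, 18.4, 113 and 110 CPM in Lgr5-negative cells of fl/fl 1, fl/fl 2, IEC-KO 1 and IEC-KO 2. The fl/fl level was thus higher in Lgr5-positive cells and the IEC-KO level lower. Of 9 goblet genes 6 had the more positive change in Lgr5-positive cells, and 0 of 8 cycling genes, 0 of 24 replication genes and 0 of 18 G2 and M genes passed in either direction (medians -0.03, -0.05 and -0.02).

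**Figure D5:**
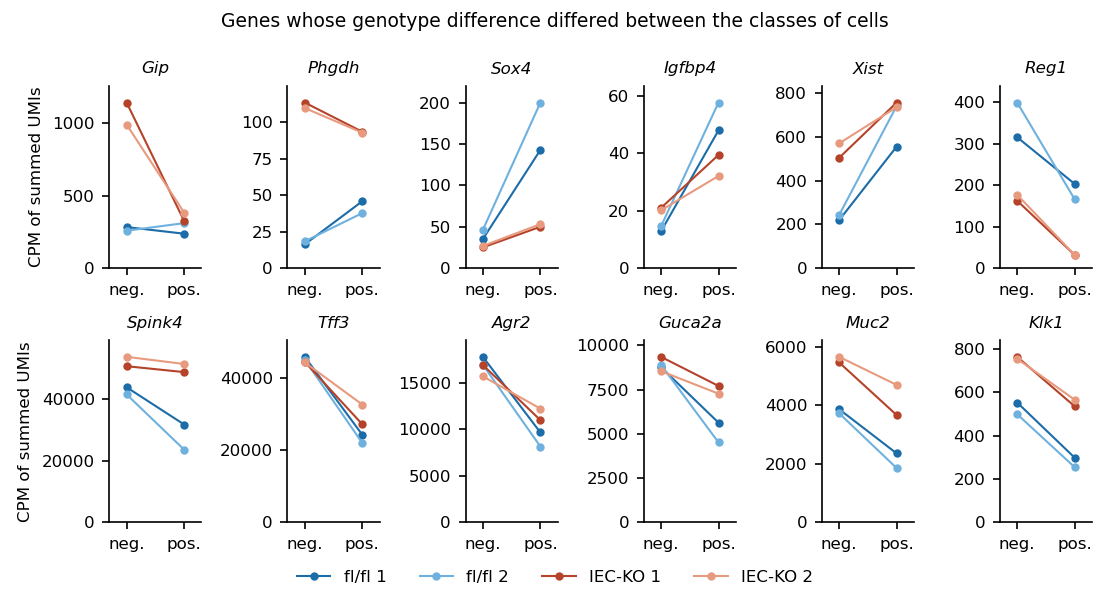
Level of 12 genes past the test of a differing genotype difference, as CPM of summed UMIs in Lgr5-negative and Lgr5-positive cells (linear axes from 0), with a line for each library. Unequal steps between blue and red lines at the 2 classes are what the test compares; for Gip the libraries part in Lgr5-negative cells, at 258 to 284 against 991 to 1143 CPM.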

How the data were processed

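The authors deposited a matrix of UMI counts per gene and cell for each of 4 libraries, made from droplet 3′ RNA sequencing with Cell Ranger 2.1.1 on mm10 according to the submitters' processing notes. The matrices held 27998 genes and 26498 cells, with 113529509, 119339206, 87922473 and 127094508 UMIs in Slc7a5 fl/fl 1 and 2 and IEC-KO 1 and 2. All deposited cells were kept, and doublets were called against simulated pairs, kept in the main results and left out in an alternative.

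The members and gene lists were chosen with earlier results of these data known. Counts were summed per library and class and tested with edgeR 4.0.16 (TMM factors, quasi-likelihood test, filterByExpr, Benjamini-Hochberg threshold 0.05), with library as a block where both classes came from the same libraries. Genes named were members of the lists and, per direction, up to 10 called genes of largest fold with at least 20 CPM in the higher class and the same direction in every library (between genotypes, no overlap). Ribosomal, mitochondrial and unnamed genes (Gm, Rik) were passed over there. Lgr5 and Defa genes were left out of each test. Shares carry exact Clopper-Pearson 95% intervals. Cells were thinned to 3500 UMIs to compare shares. Clusters came from 2000 variable genes, 30 components and Leiden at resolution 1 (leidenalg 0.10.2), and goblet-, enterocyte-, tuft- and enteroendocrine-like names from listed markers. DESeq2 1.42.0 and the settings of the closing section were alternatives. The count test was checked on simulated counts. Gene positions are from GENCODE on GRCm38. A few named genes are not reported here.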

Additional observations from a re-analysis of the deposited data

Results flagged for a closer look

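The change with genotype differed between Lgr5-positive and Lgr5-negative cells, by edgeR's interaction term, for 31 of 11087 genes. Leaving out 1 library gave between 17 (without IEC-KO 2) and 115 (without fl/fl 1), with 52 without fl/fl 2 and 50 without IEC-KO 1, so the number rests on single libraries. Values are the log2 change from fl/fl to IEC-KO in Lgr5-positive cells minus that in Lgr5-negative cells.

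Of the 22 positive values, 6 were of goblet genes of the list, Spink4 0.66, Guca2a 0.63, Agr2 0.56, Klk1 0.55, Muc2 0.52 and Tff3 0.48. Reg4 stood at 0.51 and the Paneth protease Mmp7 at 0.38. The 9 negative values were Gip -1.51, Phgdh -1.45, Reg1 -1.42, Bex1 -1.29, Igfbp4 -1.1, Sox4 -1.0, Xist -0.93, Zfos1 -0.88 and Gsta1 -0.88.

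Xist, the RNA of the inactive X chromosome, was at 555, 741, 756 and 735 CPM in Lgr5-positive cells of fl/fl 1, fl/fl 2, IEC-KO 1 and IEC-KO 2 and at 219, 242, 503 and 570 CPM in Lgr5-negative cells. The Y-linked genes Ddx3y, Eif2s3y, Uty and Kdm5d each had UMIs in the Lgr5-negative cells of every library. Summed with Xist they made 258, 284, 517 and 584 CPM there. A mix of sexes that differed with genotype cannot be told apart from genotype in these libraries. Gip, an incretin hormone, was at 238, 311, 325 and 383 CPM in Lgr5-positive and at 284, 258, 1143 and 991 CPM in Lgr5-negative cells. The part of free RNA, sex of the mice and cell types in these values was not tested.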

How the results depend on the processing

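The share of Lgr5-positive cells differed between genotypes (IEC-KO minus fl/fl, main value -2.73 percentage points) by -0.627 after thinning, -0.846 with 1 lower limit on UMIs, -0.820 for 2 or more Lgr5 UMIs and -3.85 in clusters 2, 9 and 11 (chosen after the data were seen), and by -3.11 to -2.35 with 1 library left out. Their cycling share differed by -20.1 after thinning and -21.6 in those clusters (main -31.9), and by -38.7 to -25.1 with 1 library left out. Against Lgr5-negative cells it reversed to -1.77 in those clusters and was 13.8 to 20.8 with 1 library left out. Cycling genes were not left out when those clusters were formed, so restricting to them selects in part on the cycle. The cause of these shifts was not tested.

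Genes called between Lgr5-positive and Lgr5-negative cells (1365) were 909 by DESeq2, 397 after thinning, 631 for 2 or more Lgr5 UMIs, 155 with no replicate block, 518 in cluster 9 alone and 699 in clusters 2, 9 and 11, and 746 (without fl/fl 1), 759 (without fl/fl 2), 779 (without IEC-KO 1) and 1366 (without IEC-KO 2). Between genotypes (625) they were 941 by library size only, 175 by DESeq2, 50 after thinning, 396 with doublets left out, 50 for 2 or more Lgr5 UMIs, 209 at Defa% under 10 and 156 in those clusters, and 339 (without IEC-KO 2) to 805 (without IEC-KO 1). With a replicate block they were 646, and 597 of these were among the 625. Deviations of fl/fl 1 and IEC-KO 1 from their group means correlated at -0.029 over 6333 genes. Counting error in sums of few cells pulls such a value towards 0. It therefore cannot tell whether same-numbered libraries share more than a number. The interaction (31) gave 11 by DESeq2, 14 after thinning, 19 with doublets left out, 15 at Defa% under 10, 15 with a replicate block in place of library, and 17 to 115 with 1 library left out. Between cycling cells (548) there were 206 by DESeq2, 54 after thinning and 227 (without fl/fl 1), 247 (without fl/fl 2) to 639 (without IEC-KO 1). Between cycling and other Lgr5-positive cells (871) there were 366 by DESeq2, 37 after thinning and 644 to 789.

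Genes that reversed between Lgr5-positive and Lgr5-negative cells were Rgmb after thinning (-0.12), Alox5ap (-0.93), Birc5 (-0.078), Cenpa (-0.086) and Ube2c (-0.091) for 2 or more Lgr5 UMIs, and in cluster 9 alone Sst (0.079), Birc5 (-0.28), Bub1b (-0.072), Cdca3 (-0.15), Cenpa (-0.12), Fos (0.12), Gip (0.16), Hmmr (-0.0165), Spdef (0.47) and Ube2c (-0.36). In clusters 2, 9 and 11 they were Alox5ap (-0.66), Birc5 (-0.33), Cdca3 (-0.16), Cenpa (-0.17), Cks2 (-0.063), Dclk1 (-0.10), Hmmr (-0.040), Tpx2 (-0.053), Tyms (-0.014) and Ube2c (-0.27). Between genotypes they were Cdc20 after thinning (0.42), Xist for 2 or more Lgr5 UMIs (-0.080), and Reg1 (0.098), Apoa1 (0.080) and Sis (0.35) in clusters 2, 9 and 11. Between cycling cells they were Cck (0.32) and Sox9 (-0.14) after thinning. The median of all genes moved by -0.16 between the Lgr5 classes with no filter on low counts and by -0.18 for 2 or more Lgr5 UMIs, and by 0.26 in the interaction and -0.10 between cycling cells after thinning.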

Other observations

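Ascl2 was not confined to the cells with Lgr5 detection, as its shares in Lgr5-negative cells above show. Of the 139 tuft-like cells 9 had a UMI of Lgr5. Over all 139 Ascl2 stood at 41.1, 57.3, 53.3 and 49.1 CPM in fl/fl 1, fl/fl 2, IEC-KO 1 and IEC-KO 2. It was at 48.1, 51.1, 41.2 and 55.6 CPM in cluster 9 and at 1.77 CPM over the enterocyte-like cells. The tuft-like cells numbered 10, 15, 71 and 43, of which 2.16% were cycling, against 67.7% in cluster 9. Their fl/fl values thus rest on few cells.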
